A study of Canis lupus familiaris with 8 samples.

Results

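The genes described here are 49 genes of the cell division cycle, 23 of DNA replication (S phase) and 26 of mitosis, in TCRαβ+ T cells from dog blood. They were chosen as a fixed list of symbols, and 47 of them, 22 S phase genes and 25 mitosis genes, were found among the 20257 genes of the count tables. The S phase gene E2F1 and the mitosis gene CCNB1 are not among the symbols of the gene list used here and were not analysed. The rule that lists them uses no measured value, but the genes were chosen with earlier results of these data known. The study itself named MKI67, TOP2A, CLSPN and KIF15 among the genes of its cluster of proliferating cells.

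The cells came from 4 healthy Beagles, whose blood T cells were sorted with an antibody against the αβ T cell receptor, frozen, and thawed together for droplet-based 5' single-cell sequencing, with 1 gene expression library and 1 receptor library per dog. None was treated. Dog 1, the only female, was aged 5 years, and the males were aged 7 (dogs 2 and 3) and 9 years (dog 4). The dog is the replicate throughout (n = 4), and cells of 1 dog are not replicates. Cells were grouped by transcripts: a CD4 single-positive (sp) cell had at least 1 UMI (a counted RNA molecule) of CD4 and none of CD8A, and a CD8A sp cell the reverse.

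Cells that are about to divide first copy their DNA. Helicase subunits (MCM2 to MCM7) are loaded at replication origins by CDC6 and CDT1, ribonucleotide reductase, thymidylate synthase and thymidine kinase supply the building blocks, and a sliding clamp, PCNA, holds the polymerases on the DNA. In mitosis, cyclin-dependent kinase with its cyclins, the Aurora and Polo kinases, kinesin motors and centromere proteins condense and separate the chromosomes, and the anillin ring divides the cell. Most T cells in blood are at rest, and an activated T cell divides many times before it returns to rest.

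The libraries held 7428 to 8873 barcodes, of which 7096, 8454, 8109 and 8250 were kept for dogs 1 to 4, in all 31909 cells with medians of 3599 to 3931.5 UMIs. There were 13247 CD4 sp, 6427 CD8A sp, 725 double-positive and 11510 double-negative cells. Double-negative here means only that no UMI of CD4 or CD8A was found. The study reported more such cells than earlier flow cytometry had shown. It could not tell true double-negative cells from cells in which CD4 RNA was missed. CD3E, a chain of the T cell receptor complex, was detected in 95.1% of the cells as the mean of the dogs. Of the B cell markers, MS4A1 was found in 0.623% and CD79B in 0.149% of the cells and PAX5 in none, while CD79A had a UMI in 98.8% of them. Whether the reads counted as CD79A come from that gene was not tested, so its level is not read here as one of B cells. Between 87 and 120 barcodes occurred in each pair of libraries.

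A small number of cells carried many of these genes at once. Of the 31909 cells, 6867 had a UMI of none of the 47 genes and 9483 had a UMI of 1 of them. From there the numbers fell with each further gene, to 14 cells with 11 genes and 7 cells with 12. Beyond this point a long tail reached 46 genes in a cell of dog 3. The 205 cells with 12 or more different genes are called cycling-gene-rich cells here. The limit of 12 was chosen after the distribution had been seen, and 21 cells lay at 11 or 12 genes. They were 40, 74, 45 and 46 cells of dogs 1 to 4, which is 0.564%, 0.875%, 0.555% and 0.558% of the cells, with exact (Clopper-Pearson) 95% intervals of 0.403 to 0.767%, 0.688 to 1.10%, 0.405 to 0.742% and 0.408 to 0.743%. The interval of dog 2 overlapped those of the other dogs.

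**Figure D1:**
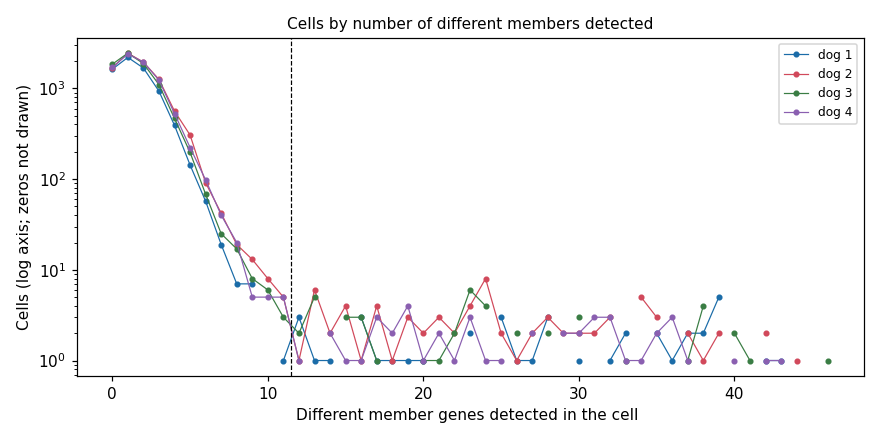
Number of cells (log axis) against the number of the 47 genes with at least 1 UMI in the cell, 1 line per dog, with points at 0 cells not drawn. The dashed line stands before 12 genes: the counts fall to 7 cells at 12 genes and then run on at a few cells per bin to 46 genes.

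The cycling-gene-rich cells carried T cell transcripts, with CD3E in 98.4% of them as the mean of the dogs. The 6 T cell markers summed to 2735, 2523, 2557 and 2564 CPM (counts per 1000000 UMIs) in them, lower than the 3070, 3048, 3037 and 3273 CPM of all cells in each dog. Of the 205 cells, 80 were CD4 sp, 61 CD8A sp, 9 double-positive and 55 double-negative. FOXP3, the transcription factor of regulatory T cells, had a UMI in 39 of them, CCR7, a homing receptor of naive and central memory cells, in 43, GZMB, a cytotoxic granule protease, in 83 and PDCD1, an inhibitory receptor of activated T cells, in 52. Of all 13247 CD4 sp cells, 622 had a UMI of FOXP3, 5304 of CCR7 and 568 of PDCD1. Of all 6427 CD8A sp cells, 772 had a UMI of CCR7, 3931 of GZMB and 530 of PDCD1. The cycling-gene-rich cells had a median of 11654 UMIs, against 3777.5 in the other cells, and detection of a gene depends on UMIs per cell. Of 6 myeloid markers 5 are in the gene list, and these summed to 3.31 to 10.3 CPM in the 4 dogs, against 0.599 to 0.994 CPM in all cells, with CSF1R, CSF3R and S100A12 at 0 in both. The myeloid marker LYZ had a UMI in 4.67% of the cycling-gene-rich cells and 0.190% of all cells, and the B cell marker CD79B in 5.42% and 0.149%. The 7 B cell and plasma cell markers summed to 4580 to 5357 CPM against 9069 to 10287 CPM, nearly all of it CD79A. Of the 165 with a receptor β chain (TRB) sequence, 10 (6.06%) had more than 1, against 3.71% of the other cells. The part of cell doublets in these values was not tested.

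The S phase and mitosis genes were mixed within these cells. At least 2 times as many S phase genes as mitosis genes were detected in 72 of the 205 cells, the reverse held in 17, and 116 cells lay between. The S phase genes most often detected in them were MCM6, a helicase subunit, in 95.1% ± 2.02 of the cells of a dog, and TK1, thymidine kinase, in 94.4% ± 2.08. Among mitosis genes MKI67, which coats mitotic chromosomes and is the common proliferation marker, was detected in 87.9% ± 4.86 and CENPF, a centromere protein, in 73.7% ± 9.39. At the other end the spindle checkpoint kinases TTK and BUB1 were detected in 21.7% ± 3.53 and 25.9% ± 4.70. These shares partly follow from the choice of the cells and are given as a description.

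The genes differed widely in how far they were confined to cells with other genes of the set. For each gene, the share of its UMIs was taken in cells with at least 3 other mitosis genes. By this measure 17 of 25 mitosis genes and 4 of 22 S phase genes had at least 50% of their UMIs in such cells, and the median gene had 61.2% among the mitosis genes and 23.3% among the S phase genes. CCNB2, a mitotic cyclin, had 93.1%, 94.8%, 94.1% and 97.6% in dogs 1 to 4, and KIF23, a kinesin of cytokinesis, had 97.1%, 90.2%, 90.5% and 90.5%. RRM2, the regulated subunit of ribonucleotide reductase, led the S phase genes with 87.4%, 91.4%, 91.3% and 91.9%. The values of these genes lay close together in the 4 dogs.

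The cells were also chosen by 12 or more of the other genes of both lists, a measure added after the data had been seen. At least 50% was then again reached by 17 mitosis genes and 4 S phase genes. RRM2 had 91.3%, 90.2%, 92.6% and 94.6% of its UMIs in cells that make up under 0.9% of the cells of any dog. CCNB2, CLSPN (a replication checkpoint adaptor), KIF23 and BUB1 (a spindle checkpoint kinase) followed at means of 88.3%, 86.7%, 85.4% and 82.4%. The cycling-gene-rich cells had a median of 11654 UMIs against 3777.5 in the others, so their share of all UMIs is above their share of cells. That share was not taken, so the level of an unrelated gene is not given. CDC6, which loads the helicase, had 77.9%, 84.5%, 68.1% and 70.6%, and MKI67 had 64.6%, 61.2%, 68.7% and 67.6%. The spread between dogs was widest in CDC45, a helicase cofactor, from 32.1% in dog 3 to 80.7% in dog 2.

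Other genes of the same processes stood at the low end of this measure. TYMS, thymidylate synthase, had 5.70%, 8.07%, 6.19% and 5.98% of its UMIs in cycling-gene-rich cells, POLA1, the polymerase that primes new strands, a mean of 6.48% ± 1.92, and MCM4 7.92% ± 1.52. RRM1, the large reductase subunit, had 11.3% ± 1.72, which contrasts with 92.2% ± 1.88 for its partner RRM2. Among mitosis genes, KIF20B, a kinesin, stood apart with 5.85% ± 0.972, well below the next lowest, AURKA with 14.4% ± 3.68. TYMS had a UMI in 15.5% of all cells, KIF20B in 13.6%, MCM4 in 20.2% and MCM6 in 21.2%, against 0.774% for RRM2 and 0.382% for CCNB2. A share of cells with a UMI depends on depth. With 2000 UMIs drawn from each cell, and the 1020, 1329, 1110 and 1290 cells below that depth left out, the shares were 8.55%, 7.61%, 11.0% and 11.7% for the first 4 genes and 0.533% and 0.177% for the last pair.

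**Figure D2:**
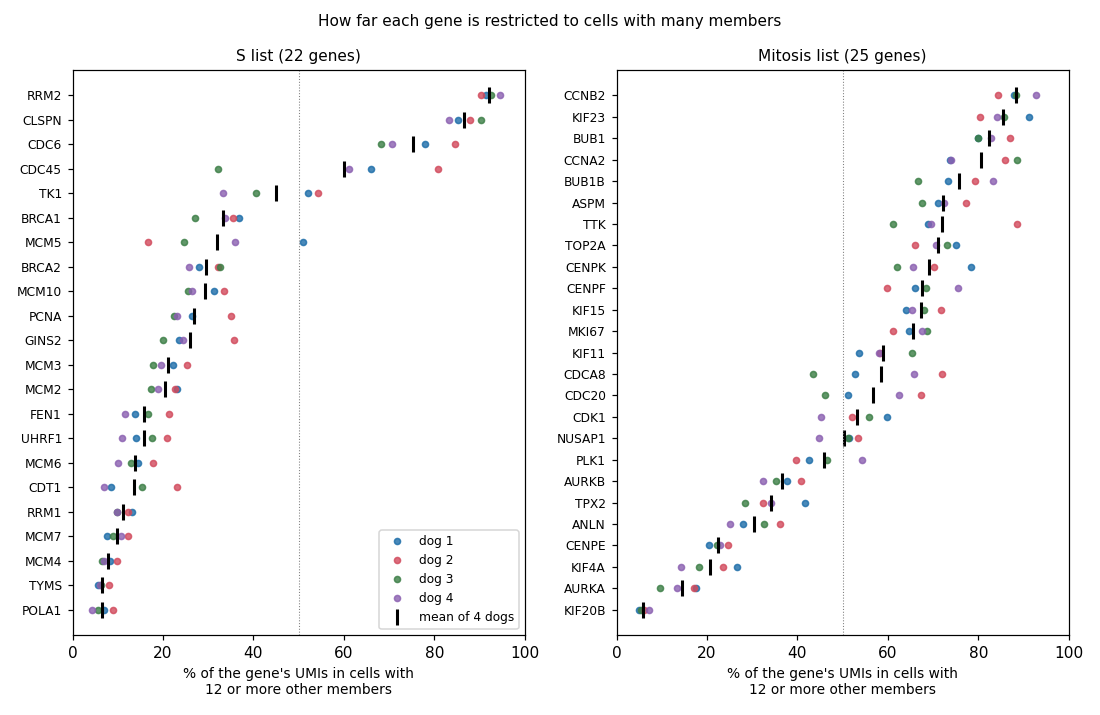
Share of each gene's UMIs (%) found in cells with 12 or more of the other genes, for the 22 S phase genes and the 25 mitosis genes, with 1 point per dog and a bar at the mean of 4 dogs. RRM2, CLSPN, CDC6 and CDC45 lie right of the dotted line at 50% among the S phase genes, most mitosis genes do, and TYMS, POLA1, MCM4 and KIF20B lie under 10%.

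MKI67 by itself did not pick out the cycling-gene-rich cells. It had exactly 1 UMI in 370 cells, of which 10 (2.70%) had 12 or more of the other genes, and 2 UMIs in 110 cells, of which 7 (6.36%) did. Of the 288 cells with 3 or more MKI67 UMIs, 157 (54.5%) were rich in the other genes, and the shares were 47.0%, 53.8%, 59.3% and 59.7% in dogs 1 to 4. Cells with 1 UMI of MKI67 had medians of 4407.5 to 5195 UMIs in the 4 dogs, and those with 3 or more 9542 to 10014.

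Most genes kept a similar level across the dogs. CPM counts molecules from their 5' ends and is not divided by length, so genes are not ranked by level here. The ratio of the highest to the lowest dog had a median of 1.33 over the S phase genes and 1.39 over the mitosis genes. MCM4 was the most even with 61.5, 67.0, 62.7 and 64.7 CPM in dogs 1 to 4, and TYMS followed with 44.5, 47.7, 45.1 and 42.7 CPM. The helicase subunit MCM5 was the least even, at 3.79, 18.6, 7.08 and 3.85 CPM from 100, 651, 228 and 125 UMIs, so that dog 2 stood 4.90 times above dog 1. CDT1, the licensing factor, had 38.8, 17.8, 18.5 and 47.8 CPM, with dogs 1 and 4 above dogs 2 and 3. CDC45 had 1.89, 2.37, 3.38 and 1.11 CPM, from 36 to 109 UMIs. With 1 library per dog, a difference between dogs cannot be told apart from one between libraries, and it was not tested.

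**Figure D3:**
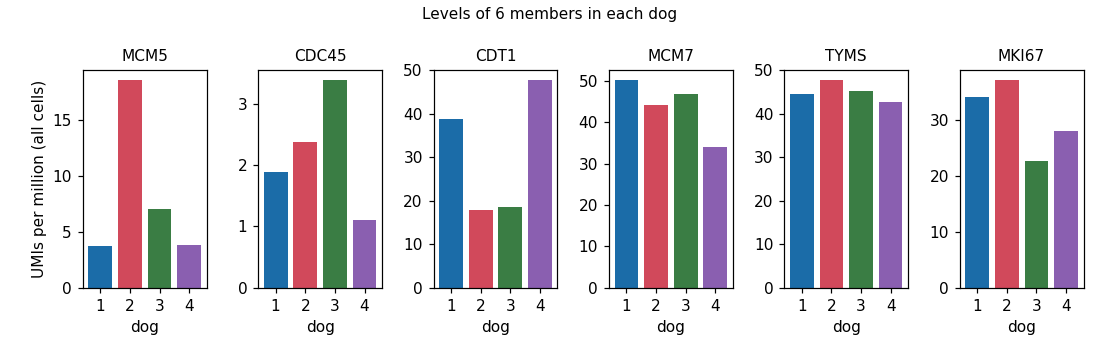
Level (CPM, linear axes from 0, each panel with its own scale) of MCM5, CDC45, CDT1, MCM7, TYMS and MKI67 in all kept cells, 1 bar per dog with no error, since each dog has 1 library. MCM5 stands at 18.6 in dog 2 against 3.79 to 7.08 in the others, CDT1 is high in dogs 1 and 4, and TYMS is level.

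To see how cells with several mitosis genes differ in the S phase genes, cells with UMIs of at least 3 mitosis genes were compared with all other cells. They were 456 of 31909 cells, 1.41% ± 0.425 (SD, n = 4) of the cells of a dog, with median UMIs of 7419 to 8842.5 in the 4 dogs against 3587 to 3899 in the other cells. The mitosis genes define these cells, so that only the S phase genes and other genes were tested. All 22 S phase genes were higher, with 40.3% of all 10458 genes tested called in either direction (19.6% higher), each by edgeR's quasi-likelihood test with dog as a block and Benjamini-Hochberg adjustment over all genes (adjusted p under 0.05). The median log2 fold change of the S phase genes was 3.19, against -0.07 over all genes. RRM2 rose from 0.943 ± 0.339 to 275.9 ± 41.6 CPM (log2 fold change 8.15, SE 0.13, adjusted p = 1.04e-20). TK1 rose from 12.6 ± 2.94 to 331.9 ± 60.4 CPM, a log2 fold change of 4.67 (SE 0.12). The rise was least in POLA1 (1.19, SE 0.13), TYMS (1.21, SE 0.09) and MCM4 (1.51, SE 0.08). Between cells matched on UMIs, 20 of 20 S phase genes tested were higher (18.8% of all genes called in these cells), with a median log2 fold change of 2.10.

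Other genes of the cycle moved the same way in these cells. Of 61 further genes of replication, repair and mitosis that were listed, 52 were tested and all 52 were higher, among them UBE2C, the ubiquitin ligase partner of mitotic exit, at 136.7 ± 17.6 against 0.344 ± 0.219 CPM. Of 11 tested regulators of the G1 phase, 6 were higher and 2 lower, with cyclin E2 (CCNE2) at 37.4 ± 6.29 against 2.36 ± 0.650 CPM. Of 13 quiescence genes 2 were higher and 7 lower. The antiproliferative BTG2 stood at 213.3 ± 47.6 against 369.4 ± 39.2 CPM (log2 fold change -0.84, SE 0.08) and CDKN1B, an inhibitor of cyclin-dependent kinases, at 60.2 ± 11.5 against 101.0 ± 4.54 CPM. Of 12 activation genes 3 were higher and 2 lower, and CTLA4, an inhibitory receptor, rose by 0.57 on the log2 scale (SE 0.09). Among the genes used to group cells, FOXP3 was higher (1.84, SE 0.17) and PDCD1 was higher (0.88, SE 0.17), CCR7 was lower (-1.32, SE 0.11) and CD4 was lower (-0.70, SE 0.08). The values for CD8A were 0.11 (SE 0.13, adjusted p = 0.538) and for GZMB -0.17 (SE 0.10, adjusted p = 0.196), both not called. The 10 non-members with the highest rise were PIMREG, NUF2, CKAP2L, NEK2, CDCA3, UBE2C, TROAP, KIF20A, KIF18B and CENPT. PIMREG had 29 UMIs in these cells and 0 in the others.

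Between the lineages, a few of the genes differed and most did not pass the test. Median UMIs were 3775 in CD8A sp and 3973 in CD4 sp cells as means of the dogs. The S phase genes summed to 458.8, 479.0, 474.5 and 480.2 CPM in CD4 sp cells and to 502.8, 570.2, 452.1 and 514.7 CPM in CD8A sp cells, higher in CD8A sp cells in 3 of 4 dogs. The mitosis genes summed to 190.5, 197.5, 158.1 and 167.9 CPM in CD4 sp and to 233.0, 203.9, 171.3 and 241.6 CPM in CD8A sp cells, higher in 4 of 4 dogs with overlapping ranges. Cycling-gene-rich cells were 0.607% ± 0.122 of the CD4 sp and 1.03% ± 0.359 of the CD8A sp cells, and with cells matched on UMIs 0.542% and 0.741%, higher in CD8A sp cells in 2 of 4 dogs. After each cell was thinned to 2000 UMIs they were 0.314% ± 0.114 and 0.553% ± 0.160, higher in CD8A sp cells in 4 of 4 dogs with no overlap. When the cycling-gene-rich cells were left out, the order of the S phase sums turned, to 400.5 ± 23.1 CPM in CD4 sp and 372.9 ± 12.1 CPM in CD8A sp cells, lower in CD8A sp cells in 4 of 4 dogs. Leaving out these cells removes them from both groups by the genes themselves, so these values are a description.

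Of the 46 genes tested, 8 were higher and 2 lower in CD8A sp cells by edgeR's quasi-likelihood test, which is 21.7% of them, against 27.1% of all 10120 genes called in either direction. The median log2 fold change was 0.12 for the S phase genes and 0.44 for the mitosis genes, against -0.0023 over all genes. TYMS was lower, with 31.5, 38.7, 38.0 and 38.0 CPM in CD8A sp against 46.6, 48.7, 48.4 and 46.8 CPM in CD4 sp cells (log2 fold change -0.38, SE 0.07, adjusted p = 0.00368). The groups did not overlap. How many of all genes had no overlap was not counted, so overlap is given here and below as a description of the values. KIF20B was also lower, at 46.0, 33.8, 35.9 and 37.9 against 55.0, 49.9, 45.1 and 40.8 CPM (-0.32, SE 0.08), lower in each dog with overlapping ranges. CDC45 was higher, at 3.18, 5.06, 7.28 and 2.36 against 1.97, 2.06, 2.03 and 0.737 CPM (1.41, SE 0.24, adjusted p = 0.0033). MKI67 stood at 48.8, 41.7, 30.9 and 43.98 against 34.1, 33.7, 20.8 and 27.4 CPM (0.51, SE 0.08), higher in each dog with overlapping ranges. The others called higher were KIF4A, a chromosome-bound kinesin (0.83, SE 0.17), AURKB, a kinase of the chromosomal passenger complex (0.69, SE 0.19), ASPM, a spindle pole protein (0.51, SE 0.15), CDC20, an activator of the anaphase-promoting complex (0.49, SE 0.15), MCM3 (0.24, SE 0.08) and MCM6 (0.21, SE 0.06).

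Without the cycling-gene-rich cells, 5 of 35 genes tested were called, against 27.4% of all genes: TYMS (-0.49, SE 0.06), MCM2 (-0.80, SE 0.16) and KIF20B (-0.37, SE 0.08) were lower in CD8A sp cells, and KIF4A (0.92, SE 0.20) and AURKB (0.75, SE 0.20) were higher. For MKI67 the log2 fold change was then -0.07. The genes themselves choose the cells left out, so these calls partly follow from that choice and are a description. Over all cells, 3 of 46 genes were called when dog was left out of the model, against 14.1% of all genes. Without dog 1, 5 of 45 were called (24.6% of all genes), without dog 2, 6 of 46 (18.5%), and without dog 4, 6 of 46 (21.3%).

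Detection of FOXP3 divided the CD4 sp cells into 622 cells with a UMI and 12625 without. FOXP3, CCR7 and PDCD1 divided the same CD4 sp cells, so that these comparisons share most of their cells. FOXP3+ cells had more UMIs, with a median of 4779.6 as the mean of the dogs against 3946.5. The mitosis genes summed to 596.0, 889.5, 259.3 and 398.8 CPM in FOXP3+ cells and to 175.4, 146.7, 148.5 and 154.4 CPM in FOXP3- cells. The S phase genes summed to 1040, 834.8, 480.9 and 630.9 CPM against 437.1, 452.9, 473.9 and 471.4 CPM. Neither sum overlapped between the groups, and dog 3 was the lowest in both. The ratio of the S phase sum to the mitosis sum was 1.53 ± 0.410 in FOXP3+ and 2.96 ± 0.315 in FOXP3- cells, lower in 4 of 4 dogs with no overlap. Much of the S phase sum came from cells that were not cycling-gene-rich, with means of 406.9 and 400.1 CPM in those cells. The mitosis sums were 200.5 and 103.1 CPM there. Here and in the comparisons below, the ratio therefore also depends on the share of cycling-gene-rich cells. It does not measure the balance of the phases within them.

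Of the 42 genes tested, 27 were higher and 0 lower in FOXP3+ cells by edgeR's quasi-likelihood test (64.3%), against 13.1% of all 9545 genes called, 8.08% higher and 5.05% lower. Of the mitosis genes 17 of 20 were called, with a median log2 fold change of 2.01. Of the S phase genes 10 of 22 were called, with a median of 0.71, against -0.03 over all genes. The count filter can admit a rare gene through FOXP3+ cells alone, so these shares partly follow from it. CDCA8 and KIF23, at 0.794 to 1.61 and 1.32 to 1.92 CPM in all CD4 sp cells, are among such rare genes. Without the filter 29 of 47 genes were called, against 10.3% of all genes. MKI67 stood at 207, 199, 68.1 and 108 CPM in FOXP3+ and at 27.6, 21.6, 16.3 and 22.7 CPM in FOXP3- cells (log2 fold change 2.69, SE 0.14, adjusted p = 2.12e-13). CENPF stood at 62.5, 113, 18.3 and 56.0 against 10.3, 6.08, 6.57 and 6.40 CPM (3.07, SE 0.26, adjusted p = 3.2e-09). Neither gene overlapped between the groups.

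The spindle, centromere and checkpoint genes called higher in FOXP3+ cells were CENPF, CENPE (log2 fold change 0.96), ASPM (2.31), NUSAP1 (1.82), TPX2 (1.48), TOP2A (1.74), which untangles chromosomes, and CDCA8 (2.76), a passenger complex subunit. The kinesins KIF11 (2.06), KIF15 (2.32), KIF23 (2.42) and KIF4A (1.27) were higher, as were the kinases CDK1 (2.24), AURKB (1.95) and PLK1 (1.63), the cyclin CCNB2 (3.31) and CDC20 (2.62). Of the replication genes, those for nucleotide supply were RRM2 at 78.2, 54.6, 17.3 and 20.007 against 6.48, 6.84, 9.86 and 3.59 CPM (2.56, SE 0.29), TK1 at 99.7, 79.1, 50.8 and 54.7 against 15.4, 16.5, 28.5 and 22.5 CPM (1.75, SE 0.20) and RRM1 (0.43, SE 0.14). In RRM2 and TK1 the groups did not overlap, and dog 3 was the lowest FOXP3+ value of both. The helicase genes MCM2 (1.52), MCM3 (0.92) and MCM6 (0.66) were higher, with CDC6 (1.68), CDC45 (2.23), CLSPN (2.11) and PCNA (1.01). Not called were TYMS at -0.14 (SE 0.13, adjusted p = 0.535), MCM7 at -0.17 (SE 0.14, adjusted p = 0.485) and KIF20B at 0.24 (SE 0.13, adjusted p = 0.262).

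Cycling-gene-rich cells made up 5.15%, 4.19%, 1.04% and 3.52% of FOXP3+ and 0.337%, 0.553%, 0.634% and 0.419% of FOXP3- CD4 sp cells. In cells matched on UMIs, the means were 1.71% and 1.30%, higher in FOXP3+ cells in 2 of 4 dogs. In thinned cells they were 1.56% ± 1.58 and 0.264% ± 0.0906, higher in 3 of 4 dogs. Matching takes cells with many UMIs into the FOXP3- group. It kept 603 of the 622 FOXP3+ cells, but only 9 of the 20 cycling-gene-rich cells among them. The values in matched cells partly follow from which cells were left out. Of the 27 genes called, 17 then fell under the count filter and 2 of 17 genes tested were called, against 7.46% of all genes, MKI67 (1.98, SE 0.24) and TK1 (0.86, SE 0.23). Without the cycling-gene-rich cells 5 of 32 genes tested were called, against 10.1% of all genes, among them MKI67 (2.95, SE 0.20) and CENPF (3.27, SE 0.30), both higher. The others were MCM2 (1.15, SE 0.25) and TK1 (1.002, SE 0.23), both higher, and TYMS (-0.50, SE 0.14), which was lower in FOXP3+ cells. Here and in the comparisons below, calls without the cycling-gene-rich cells are a description, since the genes tested choose the cells left out. Without these cells the mitosis genes summed to 200.5 ± 75.1 against 103.1 ± 9.14 CPM and the S phase genes to 406.9 ± 28.7 against 400.1 ± 22.8 CPM. Without dog 2, 14 of 41 genes tested were called over all CD4 sp cells, against 6.38% of all genes.

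Of the other lists, 16 of 45 further cycle genes were higher and 0 lower in FOXP3+ cells, led by CDKN3 (2.97, SE 0.50), NCAPG, a condensin subunit (2.90, SE 0.35), UBE2C (2.58, SE 0.56) and DIAPH3 (2.18, SE 0.48). Of 12 activation genes 6 were higher and 2 lower, among them IL2RA, the receptor chain for interleukin 2, which was higher (2.09, SE 0.24), and CD38, which was lower (-1.03, SE 0.20). Of 11 genes of G1 control 1 was higher and 3 lower, and of 13 quiescence genes 3 were higher and 1 lower.

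**Figure D4:**
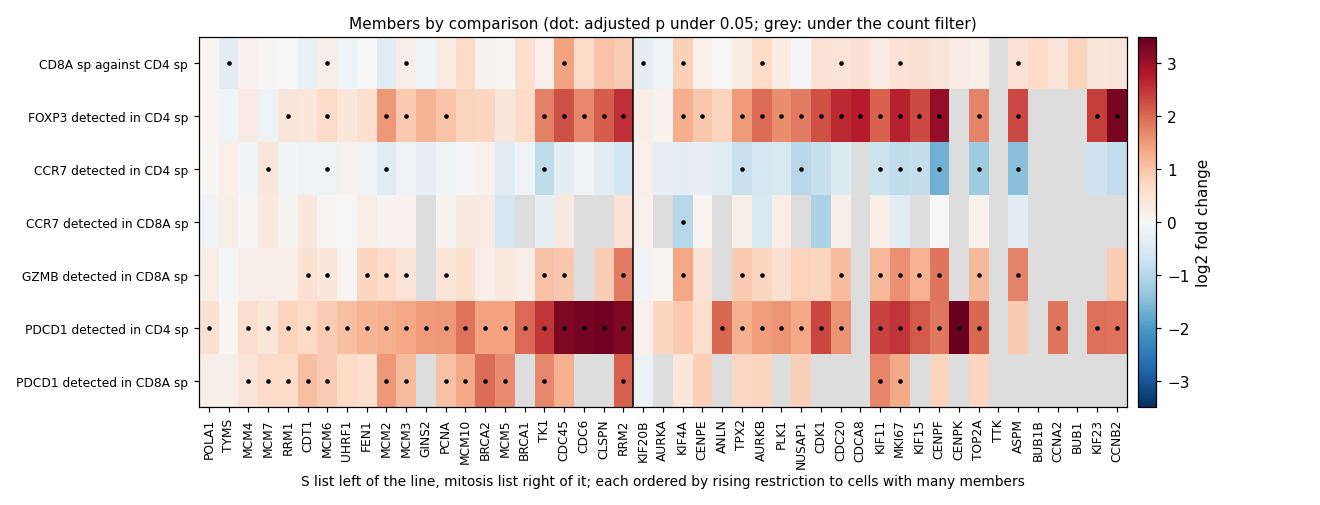
Log2 fold change (colour) of the 47 genes in 7 comparisons, with a dot where edgeR's adjusted p was under 0.05 and grey where the gene was under the count filter, S phase genes left and mitosis genes right of the line, each ordered by rising share of their UMIs in cells with 12 or more of the others. PDCD1+ and FOXP3+ CD4 sp cells and GZMB+ CD8A sp cells are red across most of the restricted genes, CCR7+ CD4 sp cells are blue, and TYMS and KIF20B at the other end are pale.

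CCR7 divided the CD4 sp cells into 5304 cells with and 7943 without a UMI, with median UMIs of 4035 and 3945 as means of the dogs. The mitosis genes summed to 175.8, 136.5, 116.4 and 135.8 CPM in CCR7+ and to 204.5, 243.0, 192.7 and 180.8 CPM in CCR7- cells, with no overlap. The S phase genes summed to 473.8, 433.8, 429.8 and 452.7 CPM against 444.5, 512.7, 511.6 and 491.2 CPM, lower in CCR7+ cells in 3 of 4 dogs. The ratio of the S phase to the mitosis sum was 3.22 ± 0.413 in CCR7+ and 2.41 ± 0.317 in CCR7- cells, higher in 4 of 4 dogs.

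Of the 41 genes tested, 11 were lower and 1 higher in CCR7+ CD4 sp cells by edgeR's quasi-likelihood test (29.3%), against 23.1% of all 9678 genes called, 13.0% lower and 10.1% higher. The median log2 fold change was -0.75 for 19 mitosis genes and -0.15 for 22 S phase genes, against 0.0054 over all genes. CENPF stood at 5.90, 4.82, 1.94 and 6.46 CPM in CCR7+ against 18.1, 19.8, 12.3 and 10.2 CPM in CCR7- cells (-1.67, SE 0.19, adjusted p = 1.07e-05). ASPM stood at 2.02, 1.81, 1.56 and 2.84 against 6.31, 5.74, 5.17 and 5.57 CPM (-1.47, SE 0.22). TK1 stood at 18.1, 12.4, 14.8 and 14.2 against 18.6, 27.1, 43.5 and 28.3 CPM (-0.90, SE 0.16). These 3 genes did not overlap between the groups. MKI67 was lower in each dog with overlapping ranges, at 29.5, 17.0, 8.55 and 22.7 against 38.4, 46.1, 31.0 and 29.3 CPM (-0.88, SE 0.16). TOP2A (-1.24), NUSAP1 (-0.97), KIF15 (-0.83), TPX2 (-0.78), KIF11 (-0.75), MCM2 (-0.44) and MCM6 (-0.17) were also lower. MCM7 went the other way, at 58.9, 53.5, 58.5 and 39.2 against 47.7, 39.6, 46.4 and 29.1 CPM (0.40, SE 0.06, adjusted p = 0.000116), higher in each dog with overlapping ranges.

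With cells matched on UMIs, 15 of 36 genes tested were called, against 23.2% of all genes, 11 of them among the 12, with MKI67 at -1.48 (SE 0.15) and CENPF at -1.94 (SE 0.28). Without the cycling-gene-rich cells 8 of 33 were called, a share near the 23.2% of all genes, with MKI67 (-1.21, SE 0.20), CENPF (-1.66, SE 0.36), TK1 (-1.02, SE 0.12), TPX2 (-0.71, SE 0.17) and MCM2 (-0.43, SE 0.15) lower, and MCM7 (0.46, SE 0.07), KIF20B (0.26, SE 0.07) and TYMS (0.21, SE 0.07) higher in CCR7+ cells. With dog left out of the model 0 of 41 were called by edgeR (10 at an unadjusted p under 0.05), against 0.0620% of all 9678 genes. DESeq2 with dog in the model called 6 of 46, against 9.46% of all genes. Without dog 1 edgeR called 19 of 41, against 20.1%. Cycling-gene-rich cells were 0.428% ± 0.128 of CCR7+ and 0.740% ± 0.261 of CCR7- CD4 sp cells, and 0.196% and 0.590% after matching, lower in CCR7+ cells in 4 of 4 dogs. In thinned cells they were 0.205% ± 0.114 and 0.398% ± 0.214, higher in CCR7+ cells in 1 of 4 dogs. Of 43 further cycle genes 3 were higher and 4 lower, with UBE2C at -1.76 (SE 0.30), NCAPH at -0.94 (SE 0.24), EZH2 at -0.35 (SE 0.12) and STMN1, a microtubule destabilizer, at 0.28 (SE 0.04). Of 12 activation genes 8 were lower and 3 higher. Of 12 genes of G1 control 3 were higher and 3 lower, and of 13 quiescence genes 3 were higher and 2 lower.

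Among CD8A sp cells, 772 had a UMI of CCR7 and 5655 had none, with median UMIs of 4527 and 3685. Of 31 genes tested 1 was called, against 16.8% of all 8233 genes, 8.31% higher and 8.50% lower. This was KIF4A, lower at 2.07, 5.94, 5.14 and 5.83 CPM in CCR7+ against 9.81, 14.0, 8.98 and 10.8 CPM in CCR7- cells (-0.99, SE 0.32, adjusted p = 0.0357 by edgeR's quasi-likelihood test), from 19 UMIs in CCR7+ cells. The groups did not overlap, but the call was lost with each dog left out in turn, without dog in the model and with DESeq2. MKI67 ranged widely in CCR7+ cells, at 0, 41.6, 14.8 and 70.0 CPM, against 58.8, 41.7, 34.4 and 42.2 CPM in CCR7- cells, and was not called (-0.37, SE 0.29, adjusted p = 0.456). Cycling-gene-rich cells were 0 of 114, 3 of 234, 2 of 334 and 2 of 90 CCR7+ cells of dogs 1 to 4, and a count of 0 of 114 allows a share of up to 2.63% by the limit of 3 counts and 3.18% by the exact 95% interval.

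After matching on UMIs, 750 CCR7+ CD8A sp cells held 1 of the 7 cycling-gene-rich cells found among all 772. The 750 matched CCR7- cells held 13 of 54. The calls in matched cells partly follow from which cells were left out. In thinned cells their share was 0.994% ± 1.05 of CCR7+ and 0.530% ± 0.115 of CCR7- cells, higher in CCR7+ cells in 2 of 4 dogs, so the order of the means turned between these measures. Of 12 genes tested in matched cells 3 were lower in CCR7+ cells, against 16.2% of all genes called, MKI67 (-1.83, SE 0.35), TK1 (-1.82, SE 0.36) and MCM6 (-0.45, SE 0.13). The CCR7 difference itself was compared between the lineages by an interaction term, chosen after the data had been seen. Of 45 genes tested 1 differed by edgeR's quasi-likelihood test, against 4.24% of all 9992 genes, and 8 had an unadjusted p under 0.05. It was CENPF, whose CCR7 difference was higher in CD8A sp than in CD4 sp cells by 1.65 on the log2 scale (SE 0.44, adjusted p = 0.033). Of 32 further cycle genes, 4 were higher and 1 lower in CCR7+ CD8A sp cells, and STMN1 was higher (0.61, SE 0.07). Of 8 genes of G1 control 2 were higher, CDC25A (1.23, SE 0.36) and MYC (0.87, SE 0.08), and 1 was lower, CCND3, a D-type cyclin (-0.69, SE 0.09). Of 13 quiescence genes 3 were higher and 1 lower, CDKN1A, an inhibitor of cyclin-dependent kinases (-1.75, SE 0.16).

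GZMB divided the CD8A sp cells into 3931 cells with and 2496 without a UMI. Here the positive cells had fewer UMIs, with medians of 3583 and 4161 as means of the dogs. The mitosis genes summed to 317.3, 283.9, 201.8 and 280.1 CPM in GZMB+ and to 132.5, 112.8, 124.5 and 181.1 CPM in GZMB- cells. The S phase genes summed to 568.9, 686.2, 487.5 and 561.9 CPM against 424.0, 438.1, 397.9 and 440.3 CPM. Neither sum overlapped between the groups. The ratio of the S phase to the mitosis sum was 2.16 ± 0.311 in GZMB+ and 3.18 ± 0.593 in GZMB- cells, lower in 4 of 4 dogs with no overlap.

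Of the 37 genes tested, 19 were higher and 0 lower in GZMB+ CD8A sp cells by edgeR's quasi-likelihood test (51.4%), against 18.1% of all 8960 genes called, 9.24% higher and 8.84% lower. The median log2 fold change was 0.93 for 17 mitosis genes and 0.41 for 20 S phase genes, against -0.0092 over all genes. The count filter can admit a rare gene through GZMB+ cells alone. Without it 21 of 47 genes were called, against 14.8% of all genes. CENPF stood at 26.7, 19.9, 16.7 and 21.1 against 3.101, 3.14, 6.63 and 7.04 CPM (1.87, SE 0.24, adjusted p = 8.67e-05). RRM2 stood at 29.9, 27.9, 10.3 and 25.4 against 6.98, 7.34, 4.90 and 6.08 CPM (1.78, SE 0.20, adjusted p = 3.2e-05). MKI67 stood at 79.3, 65.7, 43.6 and 51.4 against 12.4, 14.3, 11.5 and 32.3 CPM (1.61, SE 0.21). In none of these 3 genes did the groups overlap, and dog 3 had the lowest GZMB+ value of each. The other mitosis genes called were ASPM (1.73), KIF4A (1.36), KIF15 (1.22), KIF11 (1.15), TOP2A (1.15), CDC20 (1.10), TPX2 (0.93) and AURKB (0.74). The other S phase genes called were TK1 (1.02), CDC45 (0.94), FEN1, a flap nuclease (0.76), MCM2 (0.67), CDT1 (0.53), MCM3 (0.48), PCNA (0.45) and MCM6 (0.36). TYMS was not called (-0.05, SE 0.10, adjusted p = 0.809).

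Cycling-gene-rich cells were 1.83%, 2.19%, 0.816% and 0.922% of GZMB+ and 0.324%, 0.615%, 0.370% and 0.688% of GZMB- CD8A sp cells. After each cell was thinned to 2000 UMIs, the means were 0.697% ± 0.308 and 0.362% ± 0.0778, higher in GZMB+ cells in 4 of 4 dogs. With cells matched on UMIs they were 0.746% and 0.276%, higher in 3 of 4 dogs, and 4 of 27 genes tested were called, against 13.7% of all genes, CENPF (1.77, SE 0.43), MKI67 (1.35, SE 0.30), KIF4A (1.30, SE 0.26) and TK1 (0.58, SE 0.18). Without the cycling-gene-rich cells 3 of 23 were called, against 17.6% of all genes, CENPF (1.84, SE 0.41), KIF4A (1.16, SE 0.21) and MKI67 (0.99, SE 0.28). Over all CD8A sp cells, 9 of 37 genes were called without dog in the model, against 7.42% of all genes. DESeq2 called 6 of 47 (7.79% of all genes), and edgeR without dog 2 called 9 of 38 (11.9%). Of 39 further cycle genes 11 were higher and 0 lower, with UBE2C (1.70, SE 0.31), NCAPH (1.44, SE 0.33), CKS1B (1.09, SE 0.28) and DTL (0.74, SE 0.23) leading. Of 13 quiescence genes 4 were higher and 1 lower, and CDKN1A was higher (1.53, SE 0.13). Of 11 genes of G1 control 1 was higher, CCND3 (0.79, SE 0.07), and 1 was lower, MYC (-0.93, SE 0.08).

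Over all cells of the groups, detection of PDCD1 in CD4 sp cells gave the highest share of called genes among the 7 comparisons of groups set by CD4, CD8A or a marker gene. The share of all genes called also differed between these comparisons, from 7.72% to 27.1%. In matched cells the order did not hold, with 2 of 12 genes called against 15 of 36 for CCR7 in CD4 sp cells. Of the CD4 sp cells 568 had a UMI of PDCD1 and 12679 had none, with median UMIs of 4561 and 3953 as means of the dogs. The S phase genes summed to 1114, 981.4, 1055 and 821.0 CPM in PDCD1+ and to 436.6, 454.4, 436.0 and 453.4 CPM in PDCD1- cells. The mitosis genes summed to 802.0, 362.2, 444.3 and 383.2 CPM against 169.9, 189.4, 139.1 and 151.0 CPM. Neither sum overlapped between the groups. The ratio of the S phase to the mitosis sum was 2.15 ± 0.561 in PDCD1+ and 2.78 ± 0.348 in PDCD1- cells, higher in PDCD1+ cells in 1 of 4 dogs.

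Of the 43 genes tested, 37 were higher and 0 lower in PDCD1+ CD4 sp cells by edgeR's quasi-likelihood test (86.0%), against 14.2% of all 9542 genes called, 8.49% higher and 5.74% lower. They were 21 of 22 S phase genes and 16 of 21 mitosis genes. The median log2 fold changes were 1.38 and 1.84, against -0.02 over all genes. The count filter can admit a rare gene through PDCD1+ cells alone, so these shares partly follow from it. CENPK, CCNA2 and KIF23, at 0.811 to 1.32, 1.15 to 1.62 and 1.32 to 1.92 CPM in all CD4 sp cells, are among such rare genes. Without the filter 39 of 47 genes were called, against 10.2% of all genes. RRM2 stood at 79.6, 58.1, 52.5 and 37.4 CPM in PDCD1+ against 6.68, 7.77, 7.72 and 1.91 CPM in PDCD1- cells (3.25, SE 0.22, adjusted p = 1.1e-12). TK1 stood at 144, 99.5, 129 and 76.8 against 14.2, 17.0, 23.9 and 20.1 CPM (2.49, SE 0.15, adjusted p = 5.45e-14). MKI67 stood at 176, 115, 102 and 136 against 29.3, 29.7, 15.4 and 18.8 CPM (2.49, SE 0.13, adjusted p = 1.28e-15). In all 3 genes each PDCD1+ value lay above each PDCD1- value. PCNA stood at 133, 87.1, 79.5 and 54.6 against 29.3, 27.4, 29.3 and 28.5 CPM (1.52, SE 0.14), again without overlap.

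By role, the genes of the helicase and its loading CDC6 (3.36), CDT1 (0.68), MCM2 (1.25), MCM3 (1.35), MCM4 (0.60), MCM5 (1.41), MCM6 (0.89) and MCM7 (0.41) were higher in PDCD1+ CD4 sp cells. MCM10 (1.90), which is not a subunit of this helicase, was also higher. At the fork CDC45 (3.26), CLSPN (3.40), GINS2 (1.48), FEN1 (1.19), POLA1 (0.53), UHRF1, which guides the copying of DNA methylation (1.05), and the repair genes BRCA1 (1.97) and BRCA2 (1.41) were higher, and so was RRM1 (0.78). TYMS was the only S phase gene not called, at 49.5, 55.3, 53.9 and 44.5 against 46.5, 48.4, 48.0 and 47.0 CPM (0.06, SE 0.13, adjusted p = 0.83). Among the mitosis genes CENPK (3.45), KIF11 (2.36), CDK1 (2.32), KIF15 (2.15), ANLN (2.01), TOP2A (1.999), KIF23 (1.93), CCNB2 (1.90), CCNA2 (1.88), CENPF (1.84), CDC20 (1.58), PLK1 (1.53), AURKB (1.47), NUSAP1 (1.36) and TPX2 (1.26) were higher beside MKI67. CENPK, KIF23 and CCNA2 are rare in CD4 sp cells, and the limit of the count filter given above applies to their calls. KIF20B (0.18, SE 0.13, adjusted p = 0.414) and KIF4A (0.92, SE 0.33, adjusted p = 0.0624) were not called.

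Cycling-gene-rich cells were 4.49%, 5.04%, 3.68% and 3.92% of PDCD1+ and 0.364%, 0.573%, 0.504% and 0.329% of PDCD1- CD4 sp cells. After thinning to 2000 UMIs the means were 2.77% ± 1.56 and 0.215% ± 0.119, higher in PDCD1+ cells in 4 of 4 dogs. With cells matched on UMIs, 12 of 554 PDCD1+ and 6 of 554 PDCD1- cells were cycling-gene-rich, and the means of 2.13% and 1.26% were higher in PDCD1+ cells in 2 of 4 dogs. Matching kept 554 of the 568 PDCD1+ cells, but only 12 of the 24 cycling-gene-rich cells among them. In the matched cells 27 of the 37 genes fell under the count filter, and 2 of 12 tested were called, against 7.98% of all genes, MKI67 (1.84, SE 0.22) and TK1 (1.63, SE 0.22). The same genes were called, as 2 of 32 tested against 10.8% of all genes, without the cycling-gene-rich cells (MKI67 1.52, SE 0.23, and TK1 1.47, SE 0.20). Of 46 further cycle genes 33 were higher and 0 lower, led by ESCO2 (2.97, SE 0.66), NCAPG (2.66, SE 0.33), CENPU (2.55, SE 0.39) and DIAPH3 (2.52, SE 0.47). Of 11 genes of G1 control 4 were higher and 2 lower, the former being E2F2 (2.14, SE 0.38), CCNE2 (1.70, SE 0.40), E2F3 (1.48, SE 0.36) and CDK2 (0.97, SE 0.31). Of 13 quiescence genes 0 were higher and 3 lower, namely FOXO1 (-0.43, SE 0.14), RBL2 (-0.35, SE 0.08) and BTG2 (-0.24, SE 0.06).

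Among CD8A sp cells 530 had a UMI of PDCD1 and 5897 had none, with median UMIs of 3705 and 3773 as means of the dogs. The S phase genes summed to 784.6, 1342, 712.5 and 714.5 against 484.1, 463.0, 435.0 and 491.0 CPM, with no overlap. The mitosis genes summed to 233.1, 561.0, 204.4 and 255.4 against 233.0, 154.3, 169.1 and 240.0 CPM, with overlapping ranges. In matched cells the mitosis sums were 227.3 ± 82.0 and 269.3 ± 311.8 CPM, and the S phase sums 635.5 ± 130.8 and 538.2 ± 301.2 CPM. The matched PDCD1- cells held 1 cycling-gene-rich cell, in a dog with a share of 2.63%, and their sums spread widely between dogs. Of 28 genes tested, 15 were higher and 0 lower in PDCD1+ cells by edgeR's quasi-likelihood test (53.6%), against 7.72% of all 8028 genes called, 4.61% higher and 3.11% lower. They were 13 of 18 S phase genes and 2 of 10 mitosis genes, with medians of 1.04 and 0.76 against -0.0034 over all genes. The count filter can admit a rare gene through PDCD1+ cells alone. Without it 18 of 47 genes were called, against 5.03% of all genes. RRM2 stood at 45.5, 83.0, 27.6 and 38.7 against 17.7, 9.30, 6.91 and 15.4 CPM (2.08, SE 0.24, adjusted p = 8.02e-08). TK1 stood at 85.3, 137, 49.7 and 30.5 against 26.0, 17.9, 21.0 and 23.9 CPM (1.69, SE 0.24). These 2 genes did not overlap between the groups, and dog 2 had the highest PDCD1+ value of both. MKI67 stood at 108, 155, 35.0 and 64.4 against 44.9, 25.9, 30.7 and 41.6 CPM (1.34, SE 0.21), higher in each dog with overlapping ranges. The others called were BRCA2 (1.96), KIF11 (1.70), MCM5 (1.65), MCM2 (1.52), MCM10 (1.33), MCM3 (1.11), CDT1 (1.05), PCNA (1.04), MCM6 (0.89), MCM7 (0.67), RRM1 (0.66) and MCM4 (0.44).

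Of PDCD1+ CD8A sp cells 2.50%, 6.80%, 2.14% and 1.48% were cycling-gene-rich in dogs 1 to 4, with dog 2 the highest, against 1.08%, 0.859%, 0.561% and 0.767% of PDCD1- cells. With cells matched on UMIs, 8 and 1 of 515 were, higher in PDCD1+ cells in 3 of 4 dogs, and in thinned cells the means were 1.75% ± 1.53 and 0.422% ± 0.0647, again higher in 3 of 4. Without dog 2, 8 of 28 genes were called, against 4.58% of all genes. With dog left out of the model 3 of 28 were called, against 0.448%. DESeq2, which gave an adjusted p for 8 of the genes, called 5, against 9.10% of all genes. Without the cycling-gene-rich cells 0 of 18 genes tested were called by edgeR (4 at an unadjusted p under 0.05), against 6.90% of all genes, and 1 of 12, TK1 (1.23, SE 0.35), in cells matched on UMIs, against 7.06%. Of 29 further cycle genes 13 were higher and 0 lower, led by NCAPG (1.56, SE 0.43) and EZH2 (1.20, SE 0.27). Of 8 genes of G1 control 1 was higher and 2 lower, with CCND3 at 0.53 (SE 0.08), MYC at -0.94 (SE 0.11) and CCND2 at -0.89 (SE 0.14). The PDCD1 difference was compared between the lineages by an interaction term chosen after the data had been seen. Of 40 genes tested 1 differed, against 0.553% of all 8678 genes, and 12 had an unadjusted p under 0.05. It was MKI67, whose PDCD1 difference was lower in CD8A sp than in CD4 sp cells by 1.16 on the log2 scale (-1.16, SE 0.26, adjusted p = 0.0228 by edgeR's quasi-likelihood test).

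**Figure D5:**
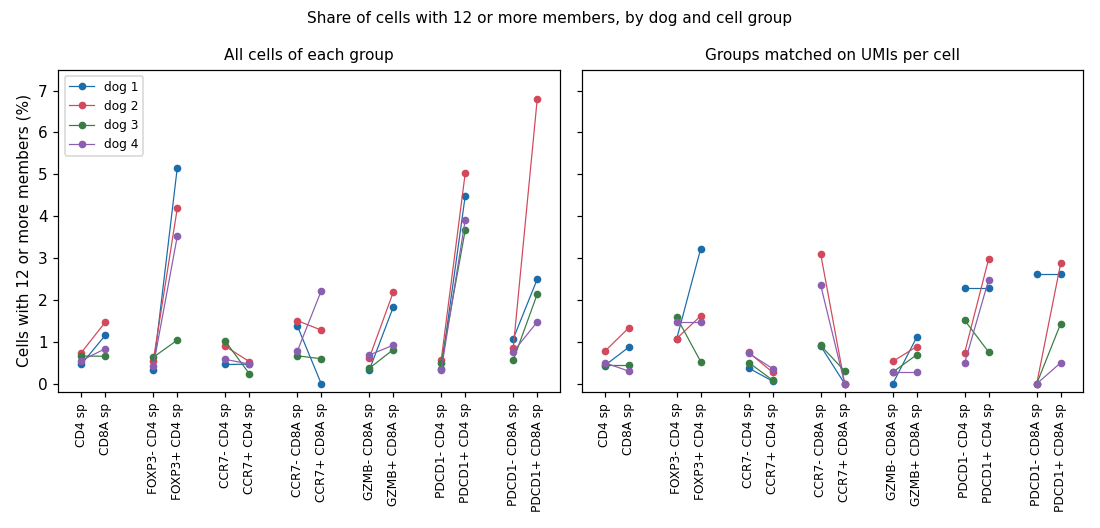
Share of cells (%) with 12 or more of the 47 genes in each cell group, 1 point per dog, in all cells on the left and in cells matched on UMIs on the right. PDCD1+ CD4 sp cells lie at 3.68% to 5.04% in all cells, and after matching the positive and negative groups of FOXP3 and PDCD1 in CD4 sp cells overlap. Matching kept 9 of the 20 such cells of the FOXP3+ group and 12 of the 24 of the PDCD1+ group.

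UMIs per cell differed between the groups by the medians given with each comparison. The part of UMI depth in these results was not tested beyond the values in matched and thinned cells. Matching also left out many of the cycling-gene-rich cells. It kept 15 of 48 in GZMB+ and 8 of 17 in PDCD1+ CD8A sp cells. Fewer cells with RNA of a gene and less RNA per cell cannot be told apart in sums over cells.

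Receptor sequences allowed a comparison of clone size, which the genes did not enter. A cell was counted as in a shared clone where its TRB rearrangement was seen in another cell of the same dog. Among cells with at least 3 mitosis genes and 1 TRB, 28.4%, 28.7%, 37.0% and 38.5% were in a shared clone in dogs 1 to 4, against 12.7%, 35.2%, 45.7% and 57.3% of the other cells. The mean difference was -4.60 ± 14.5 percentage points (exact sign-flip permutation test over 4 dogs, two-sided p = 0.625, with 0.125 the smallest p that 4 dogs allow). Dog 1 had the higher share in these cells and the other dogs the lower. Of the cycling-gene-rich cells with 1 TRB, 34, 55, 32 and 34 in dogs 1 to 4 belonged to 32, 54, 32 and 33 clones, and at most 2 of them shared a clone.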

How the data were processed

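The authors deposited UMI counts per gene and barcode for 4 libraries, made with Cell Ranger 5.0.1 on the dog genome build CanFam3.1, and tables of assembled T cell receptor sequences. The cells kept had between 500 and 20000 UMIs, and genes of the mitochondrial genome (13 genes) gave no more than 10% of them. The feature list of dog 1 has 27980 lines and does not match its matrix of 20257 genes, so the list of dog 2 was used for all dogs (r = 0.991, 0.990 and 0.989 across genes between its log gene totals and those of the other dogs).

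UMIs were summed per dog and cell group and tested with edgeR 4.0.16 in R 4.3.3 (quasi-likelihood test, TMM, filterByExpr with a minimum count of 10, dog as a block, Benjamini-Hochberg over all genes tested, called at an adjusted p under 0.05). The block pairs cell groups of the same dog and library. Overlap of the values of 2 groups was noted for named genes only, without its share over all genes, and is a description. The count filter keeps a gene that passes in as many sums as 1 cell group has, so a rare gene can enter through 1 group alone. The share called among the genes tested partly follows from this. Intervals are exact binomial at 95% and cover counting error only, as does the limit of 3 counts for a count of 0. On simulated data all genes changed 2-fold or 4-fold were recovered (100%) with CD8A sp against CD4 sp cells (10169 genes) and with PDCD1 in CD4 sp cells (9558 genes), with 3.38% and 4.31% false calls. The changed genes were drawn only from those with enough expected counts in the smallest sum, and all genes had the same dispersion. The recovery therefore does not cover genes of the set with few UMIs or with most UMIs in few cells. Alternatives were DESeq2 1.42.0, no block, no filter on low counts, each dog left out, cells matched on UMIs in bins of 250, cells with over 1 TRB left out, and other definitions of the cells. Settings with 12 or more genes, shares in matched cells and the interaction terms were chosen after seeing the data.

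Every gene of the set could be named, and all called ones were. Of each further list up to 4 called genes with the largest log2 fold change were named, and in the cells with 3 or more mitosis genes also the 10 other genes with the largest rise and the genes used for grouping. Genes and lists were chosen with earlier results of these data known. Genomic positions and sequences were not used here.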

Additional observations from a re-analysis of the deposited data

Results flagged for a closer look

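In 3 of the 47 genes 1 dog stood apart from the other 3 in the level over all cells, by a gap larger than Dixon's 95% limit for 4 samples. UHRF1 was at 8.10, 8.07, 7.11 and 7.94 CPM in dogs 1 to 4 (gap over range 0.834, dog 3 low). CENPK was at 0.871, 1.06, 0.900 and 0.892 CPM (0.841, dog 2 high). PLK1 was at 2.76, 4.31, 4.47 and 4.59 CPM (0.847, dog 1 low). Chance alone marks about 1 in 20 genes.

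Barcodes left out of the analysis also carried the genes. All 19 barcodes over 20000 UMIs had 12 or more of the 47 genes. Of the 1197 barcodes with over 10% mitochondrial UMIs, 30 (2.51%) had 12 or more, against 0.642% of the kept cells.

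The difference by CCR7 and by PDCD1 detection was unlike between the lineages in 1 gene each, by edgeR's quasi-likelihood test of the interaction. This was 1 of 45 genes for CCR7, against 4.24% of all 9992 genes. For PDCD1 it was 1 of 40, against 0.553% of all 8678 genes. For CENPF the CCR7 difference was -1.67 in CD4 sp cells, and higher in CD8A sp cells by 1.65 on the log2 scale (SE 0.44, adjusted p = 0.033). For MKI67 the PDCD1 difference was 2.49 in CD4 sp and 1.34 in CD8A sp cells, a difference of -1.16 (SE 0.26, adjusted p = 0.0228).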

How the results depend on the processing

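The 22 S phase genes higher in cells with at least 3 mitosis genes stayed called in every alternative that tested them. The other counts of called genes moved. Without the replicate block, 3 genes were called between CD8A sp and CD4 sp cells (10 with it), 19 for FOXP3 (27), 0 for CCR7 in CD4 sp (12; 10 at an unadjusted p under 0.05) and 0 in CD8A sp cells (1; 1 at an unadjusted p under 0.05), 9 for GZMB (19), and 25 (37) and 3 (15) for PDCD1 in CD4 sp and CD8A sp cells. In the same order, the shares of all genes called were 14.1%, 5.03%, 0.0620%, 9.18%, 7.42%, 3.13% and 0.448% without the block. With it they were 27.1%, 13.1%, 23.1%, 16.8%, 18.1%, 14.2% and 7.72%. DESeq2 called 6, 20, 6, 0, 6, 34 and 5 genes in this order, the count of 0 with 1 at an unadjusted p under 0.05. Of all genes it called 17.2%, 6.72%, 9.46%, 7.97%, 7.79%, 8.01% and 9.10%. Matching on UMIs left 4, 2, 15, 3, 4, 2 and 1 of 40, 17, 36, 12, 27, 12 and 12 genes tested. The shares of all genes called were then 25.1%, 7.46%, 23.2%, 16.2%, 13.7%, 7.98% and 7.06%. Leaving out cells with 3 or more mitosis genes left 5, 4, 5, 0, 2, 3 and 1 of 34, 28, 30, 17, 22, 31 and 19 tested. Of all genes 26.8%, 7.78%, 22.8%, 17.9%, 17.7%, 10.5% and 6.69% were then called. Leaving out cells with 12 or more of the genes left 5, 5, 8, 0, 3, 2 and 0 of 35, 32, 33, 19, 23, 32 and 18 tested. Of all genes 27.4%, 10.1%, 23.2%, 17.8%, 17.6%, 10.8% and 6.90% were then called. Without the filter on low counts 19 of 47 genes were called for CCR7 in CD4 sp cells (17.8% of all genes). Without cells with over 1 TRB 6 of 46 were called between the lineages (26.6% of all genes). With each dog left out in turn the counts ranged from 5 to 11, 14 to 29, 9 to 19, 0 to 0 (1 to 5 at an unadjusted p under 0.05), 9 to 15, 31 to 36, and 8 to 18. The shares of all genes called then ranged from 18.5% to 24.6%, 6.38% to 12.4%, 13.8% to 23.7%, 10.6% to 16.2%, 11.9% to 16.0%, 9.02% to 12.2%, and 4.40% to 5.64%.

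Signs turned in genes once called when cells with 3 or more mitosis genes were left out: MKI67 between the lineages (-0.30), AURKB (-0.48), RRM1 (-0.0061), PCNA (-0.15) and CENPE (-1.32) for FOXP3, MCM2 (-0.029) for GZMB, AURKB (-0.050), MCM7 (-0.079), MCM5 (-0.088), ANLN (-0.11) and BRCA2 (-0.032) for PDCD1 in CD4 sp, and MCM3 (-0.029), RRM1 (-0.22) and PCNA (-0.060) in CD8A sp cells. Without cells with 12 or more of the genes, this held for MKI67 (-0.065) between the lineages, AURKB (-0.069), PCNA (-0.17) and CENPE (-0.23) for FOXP3, MCM2 (-0.017) for GZMB, AURKB (-0.082), MCM10 (-0.037), MCM7 (-0.19), MCM5 (-0.31), BRCA1 (-0.16), ANLN (-0.0070) and BRCA2 (-0.14) for PDCD1 in CD4 sp, and MCM3 (-0.23), RRM1 (-0.10) and PCNA (-0.072) in CD8A sp cells. In matched cells it held for PCNA (-0.17, FOXP3) and MCM2 (-0.020, GZMB). Where cells were left out by the genes themselves, the counts of called genes and the signs are a description.

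The share of cells with 3 or more mitosis genes was 1.41% in all, 1.46% in CD4 sp and 1.90% in CD8A sp cells. It was 5.21%, 5.44% and 5.85% with 2 or more genes, 0.597%, 0.591% and 0.954% with 5 or more, 0.612%, 0.590% and 1.05% after thinning, and 0.638%, 0.607% and 1.03% with 12 or more of all genes. With each dog left out it ranged from 1.20% to 1.51%, 1.29% to 1.58% and 1.67% to 2.14%. The S phase sum in CD4 sp cells was 473.1 CPM, 490.3 without the filter on cells and 491 with 2 UMIs needed for a positive cell. With each dog left out it ranged from 470.7 to 477.9 in CD4 sp and from 489.9 to 529.2 in CD8A sp cells, and the mitosis sum from 172.2 to 185.3 and from 202.7 to 226.2 CPM. The clone size difference became 0.213 percentage points with 12 or more of all genes and ranged from -11.3 to 0.137 with each dog left out. The causes of these shifts were not tested.

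Depth limits the genes with few UMIs: the 47 genes had 83 to 9221 UMIs in all, and up to 27 called genes were not testable in matched cells.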

Other observations

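The 725 double-positive and 11510 double-negative cells entered no comparison of cell groups set by CD4, CD8A or a marker gene. The double-negative cells may include cells in which CD4 RNA was missed. MKI67 stood at 36.7, 67.0, 9.25 and 31.7 CPM in double-positive cells and at 29.6, 36.1, 19.5 and 15.7 CPM in double-negative cells of dogs 1 to 4. RRM2, the reductase subunit, stood at 31.2, 6.09, 1.32 and 26.1 CPM and at 8.64, 11.7, 4.63 and 2.75 CPM. TYMS stood at 49.5, 58.7, 44.3 and 47.6 CPM and at 45.0, 49.8, 47.7 and 40.5 CPM.

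GZMB had a UMI in 32, 103, 74 and 96 CD4 sp cells. Of these cells 0, 6, 3 and 3 had 12 or more of the 47 genes, that is 0% to 5.83%, where 0 of 32 allows a share of up to 9.38% by the limit of 3 counts and 10.9% by the exact 95% interval, against 0.469%, 0.596%, 0.568% and 0.476% of GZMB- CD4 sp cells. The mitosis genes summed to 156.9, 917.0, 786.4 and 979.2 CPM in GZMB+ CD4 sp cells, with dog 1 apart from the other dogs, against 190.9, 166.9, 137.0 and 139.9 CPM. No test was run on this division of CD4 sp cells by GZMB, although each dog had at least 20 cells in both groups. FOXP3 had a UMI in 86 CD8A sp cells, too few for a test.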
